A study of Homo sapiens with 4 samples.

Results

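The 9 genes described here encode proteins of the tight junction, the belt of contacts that seals neighbouring epithelial cells: the claudins CLDN1, CLDN2, CLDN3, CLDN4, CLDN7 and CLDN12, occludin (OCLN), tricellulin (MARVELD2) and ZO-1 (TJP1). They were chosen by symbol, from a list of 9 names, among 22411 genes, and each of the 9 had 1 probe set with a single symbol in the platform's annotation. The samples were 4 Affymetrix arrays of HCT116, a colon cancer line of human origin that has long been kept in culture. On 2 arrays the cells had been transiently transfected with plasmids that express PRSS8 (called PRSS8 arrays), and on 2 with the vector control (control arrays), with replicate numbers 1 and 2 in each group. PRSS8 encodes prostasin, a serine protease held at the membrane of epithelial cells. All 4 samples were transfected, and a single cell line stood for both groups. Neither the share of cells that took up plasmid nor the time to collection is given in the sources used here.

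Claudins cross the membrane and join their partners on the next cell, and the mix of claudins sets which ions and solutes pass between cells. CLDN1, CLDN3, CLDN4 and CLDN7 are mostly counted as sealing claudins, while CLDN2 forms a channel for small cations and water. Occludin and tricellulin share the MARVEL fold, and tricellulin gathers where the corners of cells meet. ZO-1 sits under the membrane and ties the tails of most claudins, and occludin, to actin. Matriptase, a membrane protease encoded by ST14 that works with prostasin, is known to act on this barrier, and EPCAM, a surface protein it cleaves, binds the protein of CLDN7.

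The stretches before the start sites of CLDN3, CLDN4, CLDN7 and OCLN are shown because these genes had the largest mean differences among the 9, and because Snail-type repressors are known to bind E-boxes in claudin and occludin promoters, as shown first in mouse. Each run is the 250 bases before a RefSeq start site (GRCh38.p14), 5′ to 3′ on the gene's strand, with every CAGGTG E-box, or its reverse complement CACCTG, in capitals. The windows lie at chr7:73770271-73770520 (minus strand) for CLDN3, chr7:73830746-73830995 (plus strand) for CLDN4, chr17:7262479-7262728 (minus strand, one of 2 starts listed) for CLDN7 and chr5:69492297-69492546 (plus strand, one of 2 starts listed) for OCLN.
CLDN3: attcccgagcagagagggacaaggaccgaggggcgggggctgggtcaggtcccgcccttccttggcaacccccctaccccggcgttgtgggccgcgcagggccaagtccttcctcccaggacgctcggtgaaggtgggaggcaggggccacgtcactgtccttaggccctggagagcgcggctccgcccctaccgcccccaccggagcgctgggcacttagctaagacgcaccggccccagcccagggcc
CLDN4: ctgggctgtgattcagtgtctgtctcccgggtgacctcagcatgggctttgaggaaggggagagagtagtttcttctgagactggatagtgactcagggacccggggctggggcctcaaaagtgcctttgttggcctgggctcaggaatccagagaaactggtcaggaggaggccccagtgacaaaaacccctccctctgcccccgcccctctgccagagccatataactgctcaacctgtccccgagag
CLDN7: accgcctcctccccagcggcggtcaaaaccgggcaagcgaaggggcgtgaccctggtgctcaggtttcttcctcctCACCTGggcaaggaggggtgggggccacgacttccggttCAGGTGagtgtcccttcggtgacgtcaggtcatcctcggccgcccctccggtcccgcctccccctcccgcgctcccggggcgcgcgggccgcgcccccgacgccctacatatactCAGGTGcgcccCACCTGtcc
OCLN: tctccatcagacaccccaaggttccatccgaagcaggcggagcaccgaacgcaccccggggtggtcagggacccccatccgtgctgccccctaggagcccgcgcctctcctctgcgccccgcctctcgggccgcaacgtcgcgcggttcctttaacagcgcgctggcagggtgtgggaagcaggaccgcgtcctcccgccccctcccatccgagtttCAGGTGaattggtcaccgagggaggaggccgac
The CLDN7 window held 4 E-boxes, beginning at −174, −135, −20 and −9 from the start site, and the OCLN window held 1 at −33. The CLDN3 and CLDN4 windows held none. RefSeq listed 15 such windows for the 9 genes, of which 4 held an E-box (1 of CLDN7, 2 of OCLN and 1 of TJP1), beside 17.5% of the 35116 windows of all genes. The core AACCNGTT of grainyhead-like factors, or its reverse complement AACNGGTT, was in none of the 15 windows and in 1.49% of all windows. At a share of 1.49%, finding no match in 15 windows is unremarkable. With no grainyhead-like match, an overlap of the motifs could not occur, so these windows do not bear on overlap. A match says only that the letters are present, and binding was not measured.

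PRSS8 itself, the transfected gene, had log2 levels of 18.55 and 18.07 on the PRSS8 arrays (replicates 1 and 2), against 10.45 and 11.18 on the control arrays. The groups lay far apart, in the direction their labels give, with a difference of 7.49 (SE 0.57), or 180.3-fold. Even so limma gave PRSS8 an adjusted p of 1 (unadjusted p = 6.4e-05), so the test did not call the transfected gene itself. Arrays of one replicate number resembled each other more than arrays of one group: Pearson's r across genes was 0.996 for number 1 and 0.989 for number 2, against 0.934 between the PRSS8 arrays and 0.930 between the control arrays. Differences are therefore given within each number as well as between group means, and are always PRSS8 minus control on the log2 scale. Keratin genes KRT8, KRT18 and KRT19, EPCAM and CDH1 had levels of 7.95 to 15.05 on the 4 arrays, and VIL1, the villin gene of the brush border, 3.41 to 3.89. Of 15 measured markers of fibroblasts, leukocytes, endothelium and red cells, 14 had means under the median level of all genes. The exception was CD68, a lysosomal protein not confined to macrophages, at 8.47 and 9.44 on the PRSS8 arrays, against 7.23 and 8.11 on the control arrays.

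In limma, 0 of the 9 genes passed the threshold of an adjusted p under 0.05 in either direction, beside 0.0% of all genes higher and 0.0% lower. The adjusted p was 1 for each of the 9, and none had an unadjusted p under 0.05, which 42 of the 22411 genes had (17 higher, 25 lower). Within both replicate numbers, 7 of the 9 genes were higher on the PRSS8 array, beside 26.0% of all genes, and 1 (CLDN12) was lower, beside 24.5%. These shares depend on the level of a gene: among the 5788 genes whose level averaged 6 or more, 38.0% were higher within both numbers and 15.0% lower, and the 6 of the 9 genes in that range were all among the higher. For 2 of the 9 genes (CLDN4 and CLDN7) neither PRSS8 array was as low as a control array, beside 5.53% of all genes and 6.12% of those averaging 6 or more, but after quantile normalization both of these genes overlapped between the groups. The opposite, with each PRSS8 array lower than each control array, held for 0, beside 5.56% of all genes. With single arrays left out in turn, the sign of the mean difference turned for 6 genes (CLDN1, CLDN2, CLDN12, OCLN, TJP1 and MARVELD2) and held for CLDN3, CLDN4 and CLDN7. Leaving out an array makes the groups unequal in replicate number, so the shift between numbers enters these signs. With all arrays kept, only CLDN12 turned, after quantile normalization. With groups of 2 arrays no exact two-sided permutation test can give a p under 0.333. In a sample of mixed cells, fewer transfected cells and less change in each cell cannot be told apart.

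**Figure D1:**
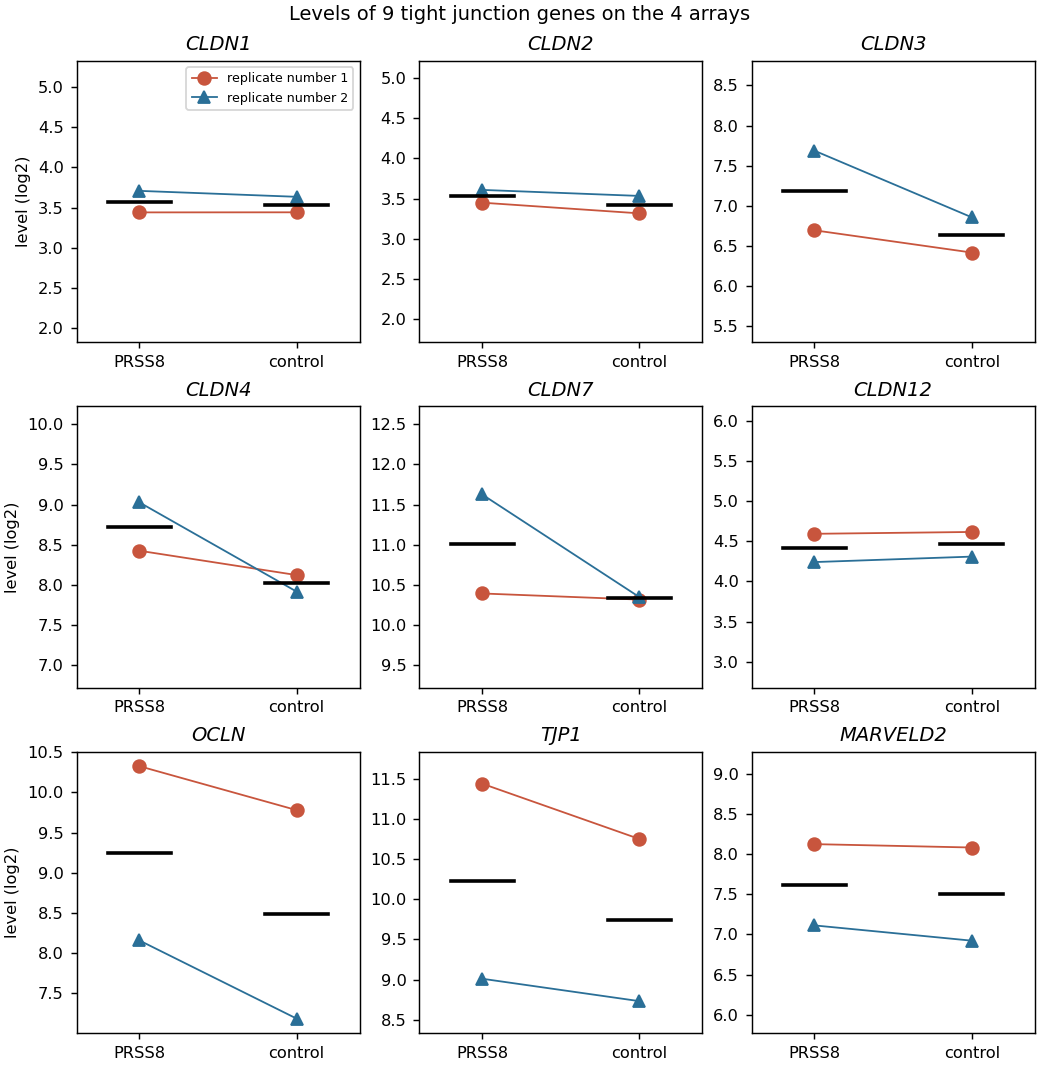
Log2 level (y axis, the same span in every panel) of the 9 genes on the PRSS8 arrays (left) and the control arrays (right). Circles are replicate number 1, triangles number 2, lines join arrays of one number and bars are group means. CLDN4 and CLDN7 have both PRSS8 points above both control points. In OCLN, TJP1 and MARVELD2 the numbers lie farther apart than the groups, as they do on a smaller scale in CLDN1, CLDN2 and CLDN12. CLDN3 is mixed: its numbers differ by 0.99 (PRSS8 arrays) and 0.44 (control arrays), its groups by 0.28 (number 1) and 0.83 (number 2).

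The sealing claudins CLDN3, CLDN4 and CLDN7 had higher levels on the PRSS8 array within each number, and the gap was wider within number 2. For CLDN4, whose protein is a receptor for an enterotoxin of Clostridium perfringens as is that of CLDN3, the levels were 8.43 and 9.03 on the PRSS8 arrays, against 8.12 and 7.92 on the control arrays. The groups did not overlap, and the lowest PRSS8 array lay 0.30 above the highest control array. The difference was 0.30 within number 1 (1.23-fold) and 1.11 within number 2 (2.16-fold), with a mean of 0.71 (SE 0.63). That mean was about as large as its SE in the main fit, where limma's adjusted p was 1. Without limma's intensity trend the SE was 0.28, and with the replicate number as a block it was also 0.28. CLDN4 did not pass the threshold in either of these fits.

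CLDN7, whose protein is common along the sides of colon epithelial cells, had levels of 10.39 and 11.63 on the PRSS8 arrays, against 10.32 and 10.35 on the control arrays. A single array, PRSS8 replicate 2, stood apart, and the other 3 arrays lay close together. The groups did not overlap, but the lowest PRSS8 array exceeded the highest control array by 0.045. The difference was 0.08 within number 1 (1.05-fold) and 1.28 within number 2 (2.43-fold), with a mean of 0.68 (SE 0.84). Without PRSS8 replicate 2 the mean difference of CLDN7 was 0.061.

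CLDN3 had levels of 6.70 and 7.69 on the PRSS8 arrays, against 6.42 and 6.86 on the control arrays. The groups overlapped, since control replicate 2 stood above PRSS8 replicate 1. Within number 1 the difference was 0.28 (1.21-fold) and within number 2 it was 0.83 (1.77-fold), for a mean of 0.55 (SE 0.55). Without control replicate 2 the mean difference was 0.77, and without PRSS8 replicate 2 it was 0.058. Like CLDN4 and CLDN7, CLDN3 had its highest level on PRSS8 replicate 2. Keratins of simple epithelia shared that array: KRT18 had 12.73 and 13.93 on the PRSS8 arrays, against 12.73 and 12.93 on the control arrays. The difference was larger within number 2 than within number 1 for 6 of the 9 genes, beside 53.1% of all genes, and for 5 of the 6 averaging 6 or more, beside 76.7% of all genes in that range.

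The other 3 claudins showed small differences at low levels. CLDN1, a sealing claudin best known from the skin barrier, had 3.44 and 3.71 on the PRSS8 arrays, against 3.44 and 3.63 on the control arrays, with a mean difference of 0.04 (SE 0.16). The groups overlapped, and the differences were −0.001 within number 1 and 0.07 within number 2. CLDN2, the cation channel, had 3.45 and 3.61 on the PRSS8 arrays, against 3.32 and 3.53 on the control arrays. Its groups overlapped too, with differences of 0.13 within number 1 and 0.07 within number 2 and a mean of 0.10 (SE 0.15). CLDN12, a claudin whose tail lacks the end that binds ZO-1, had 4.59 and 4.24 on the PRSS8 arrays, against 4.61 and 4.31 on the control arrays. It was the 1 gene of the 9 with a lower level on the PRSS8 array within both numbers, with differences of −0.02 and −0.07 (mean −0.05, SE 0.21), but its mean difference was 0.01 after quantile normalization and its difference within number 2 was 0.001 after median centring. CLDN1 and CLDN2 lay under the median level of all genes, 4.22, and CLDN12 near it. Detection values were not used here, so small differences at such levels leave unknown whether these transcripts changed.

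**Figure D2:**
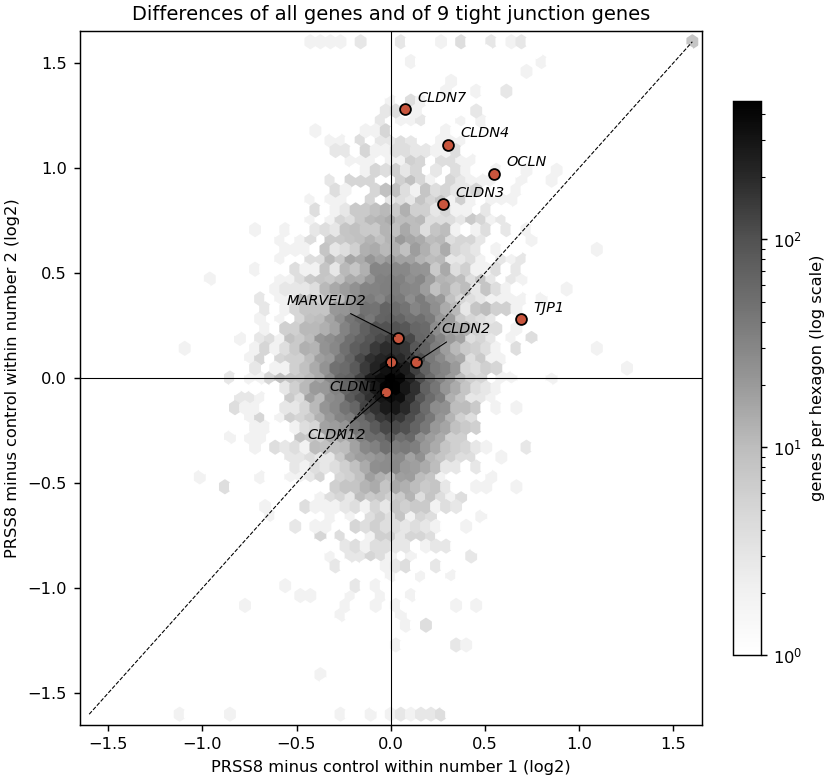
PRSS8 minus control (log2) within replicate number 1 (x axis) and within number 2 (y axis), for the 9 genes (red points) and for all 22411 genes (grey hexagons, darker for more genes, differences beyond 1.6 drawn at the edge). CLDN3, CLDN4, CLDN7 and OCLN lie above the dashed line of equal differences, TJP1 lies below it, and CLDN1, CLDN2, CLDN12 and MARVELD2 lie near the crowd at 0.

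OCLN and TJP1 were higher on the PRSS8 array within each number, although the numbers themselves differed far more. OCLN had levels of 10.33 and 8.16 on the PRSS8 arrays, against 9.78 and 7.18 on the control arrays. Within number 1 the difference was 0.55 (1.46-fold) and within number 2 it was 0.97 (1.96-fold). The groups overlapped widely, because both number 1 arrays stood above both number 2 arrays, so the mean of 0.76 carried an SE of 1.27. Number 2 minus number 1 was −2.17 on the PRSS8 arrays and −2.60 on the control arrays. Without PRSS8 replicate 1, which leaves groups of unequal numbers, the mean difference of OCLN was −0.33, and without control replicate 2 it was −0.54.

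OCLN has a partial copy elsewhere in the genome, the pseudogene OCLNP1, which the array represents with its own probe set. OCLNP1 had 12.49 and 9.06 on the PRSS8 arrays, against 11.58 and 7.62 on the control arrays. Its array pattern ran alongside that of OCLN, with differences of 0.91 within number 1 and 1.44 within number 2. Cross-hybridisation between the 2 probe sets was not tested, so the OCLN values are uncertain to that degree. OCLNP1 was added to the description after its values were seen.

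TJP1, the ZO-1 scaffold, had 11.44 and 9.01 on the PRSS8 arrays, against 10.75 and 8.73 on the control arrays. It was one of 2 genes among the 9 that were higher in both numbers with the larger difference in number 1, the other being CLDN2. The difference was 0.69 within number 1 (1.61-fold) and 0.28 within number 2 (1.21-fold), with a mean of 0.48 (SE 1.25). After quantile normalization the difference within number 2 was 0.018.

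MARVELD2, encoding tricellulin, had 8.12 and 7.11 on the PRSS8 arrays, against 8.08 and 6.92 on the control arrays. The groups overlapped and the differences were small, at 0.04 within number 1 and 0.19 within number 2 (mean 0.12, SE 0.71). RefSeq places MARVELD2 and OCLN close together on chromosome 5, as it places CLDN3 and CLDN4 on chromosome 7. The differences of the neighbours CLDN3 and CLDN4 were 0.28 and 0.30 within number 1 and 0.83 and 1.11 within number 2.

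The replicate numbers split the 9 genes in another way. OCLN, TJP1, MARVELD2 and CLDN12 were lower on the number 2 arrays than on the number 1 arrays in both groups. CLDN1, CLDN2, CLDN3 and CLDN7 were higher on the number 2 arrays in both groups. CLDN4 was higher by 0.60 on the number 2 PRSS8 array, and the number 2 control array was lower by a difference of −0.21. For TJP1, number 2 minus number 1 was −2.43 on the PRSS8 arrays and −2.02 on the control arrays, and for MARVELD2 it was −1.01 and −1.16. Over all genes the median size of that difference was 0.27 on the PRSS8 arrays and 0.29 on the control arrays. With its sign, the median was 0.12 on the PRSS8 arrays and 0.13 on the control arrays, a general offset between numbers. The median size of the difference between groups was 0.10 within number 1 and 0.14 within number 2. What the numbers stand for beyond a biological replicate is not given in the labels, and its part in these differences was not tested. The direction between numbers held for OCLN, TJP1, MARVELD2, CLDN12 and CLDN3 after quantile normalization, median centring and cyclic loess. It turned negative for CLDN2 in both groups and for CLDN1 on the control arrays under all 3 of these. For CLDN7 on the control arrays it turned to −0.29 after median centring, and for CLDN4 on the control arrays to 0.44 after quantile normalization.

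**Figure D3:**
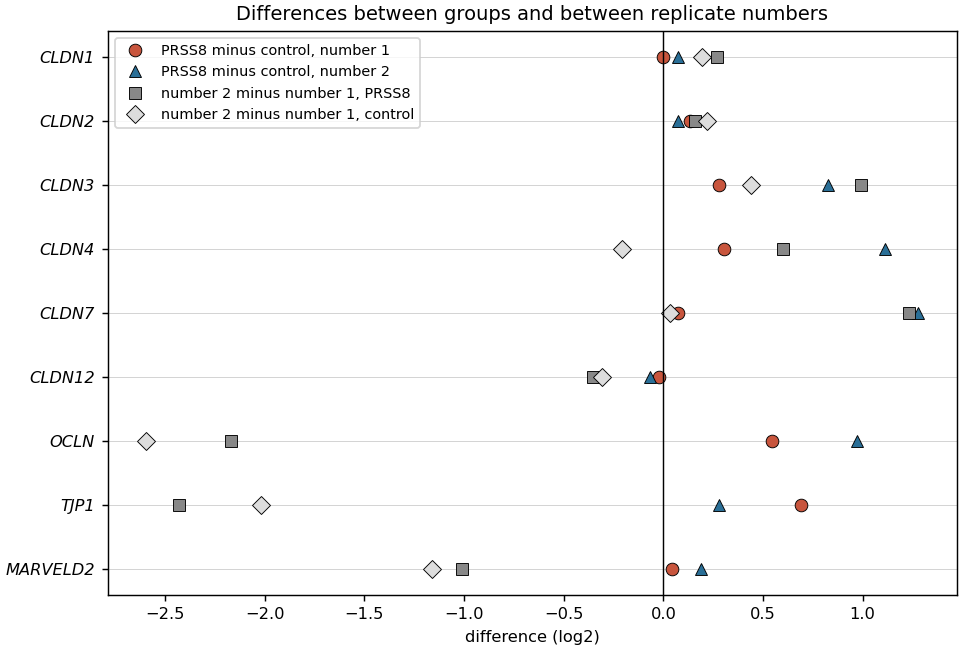
Differences (log2, x axis) for each of the 9 genes (y axis): PRSS8 minus control within number 1 (circles) and number 2 (triangles), and number 2 minus number 1 within the PRSS8 arrays (squares) and the control arrays (diamonds). For OCLN and TJP1 the squares and diamonds lie beyond −2, while circles and triangles lie between 0 and 1.

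Other genes of the junction were counted from 4 lists with 62 names, of which 56 matched a gene with a single-symbol probe set. Of these 56, 0 passed the test in either direction. Within both numbers 17 were higher and 22 lower, beside 26.0% and 24.5% of all genes. After median centring the counts were 20 higher and 11 lower. With dim genes left out, which kept 29 of the 56, they were 10 and 9. The shares of all genes under these settings were not counted, so the changed order is not a result about junction genes. The median difference of the 56 was −0.02, beside 0.001 over all genes and 0.48 over the 9 genes. These groups differ in level, with median levels of 4.42 for the 56, 4.22 for all genes and 7.56 for the 9. Among genes averaging 6 or more, the median difference was 0.098 over all genes and 0.615 over the 6 of the 9 in that range. The PRSS8 arrays exceeded both control arrays for 3 of the 56 (5.36%), beside 5.53% of all genes, and were lower than both for 2 (3.57%), beside 5.56%, shares near those of all genes. The 9 genes were named with results of these data known, so the gap between their median difference and those of the other genes is a description and carries no test.

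Among the 18 other claudins, 7 were higher and 7 lower within both numbers, beside 26.0% and 24.5% of all genes. Their median difference was −0.01, with a range of −0.10 to 0.12. All but 1 of them, CLDN25, had mean levels under the median of all genes. CLDN25 had 4.54 and 4.91 on the PRSS8 arrays, against 4.51 and 4.85 on the control arrays, so that its groups overlapped.

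Of 10 measured membrane proteins besides claudins, 2 were higher and 3 lower within both numbers (median −0.03), beside 26.0% and 24.5% of all genes. MARVELD3, the remaining member of the family of occludin and tricellulin, had 5.24 and 5.10 on the PRSS8 arrays, against 5.34 and 5.35 on the control arrays. Its groups did not overlap, with the PRSS8 arrays lower by a mean difference of −0.17 (SE 0.22). ESAM, an immunoglobulin-fold adhesion protein of endothelial junctions, differed by 0.05 (SE 0.16).

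Of 18 measured scaffold and polarity genes, 8 were lower within both numbers, beside 24.5% of all genes, and 4 higher, beside 26.0% (median −0.05). PARD6B and PRKCI, whose proteins bind each other in the apical polarity complex, were among the 4. PARD6B had 8.86 and 6.96 on the PRSS8 arrays, against 8.06 and 6.58 on the control arrays, a mean difference of 0.59 (SE 0.93). PRKCI, an atypical protein kinase C, differed by 0.27 within number 1 and 0.51 within number 2 (mean 0.39, SE 1.20). In both genes the number 1 arrays stood above the number 2 arrays, as they did for OCLN and TJP1. PARD6G, a relative of PARD6B, had 4.72 and 4.45 on the PRSS8 arrays, against 5.06 and 4.68 on the control arrays (mean −0.29, SE 0.22). Its groups overlapped by 1 array.

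Signalling proteins at the junction gave 4 of 10 genes higher within both numbers and 4 lower, beside 26.0% and 24.5% of all genes. The median difference was −0.01. ARHGEF2, an exchange factor that binds cingulin, differed by 0.23 (SE 0.28), TJAP1, a protein at the junction and Golgi, by 0.16 (SE 0.24), and YBX3, a transcription factor held by ZO-1, by −0.08 (SE 0.67).

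Transcription factors known to act on claudin or occludin genes gave 3 of 8 higher and 0 lower within both numbers (median 0.03). The shares over all genes were 26.0% and 24.5%. Mean differences ran from −0.28 (GRHL2) to 0.39 (KLF5). GRHL2, a grainyhead-like factor, differed by −0.58 within number 1 and 0.02 within number 2, and was named after its values were seen. SNAI1, the Snail repressor, had 6.02 and 6.90 on the PRSS8 arrays, against 6.01 and 6.15 on the control arrays. As for CLDN7, PRSS8 replicate 2 stood apart and the other arrays lay close together (0.01 within number 1, 0.75 within number 2, mean 0.38, SE 0.44). KLF5, an activator in intestinal crypts, differed by 0.27 within number 1 and 0.51 within number 2 (mean 0.39, SE 0.88).

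In the list of matriptase, prostasin and EPCAM, 5 genes were measured, and 2 were higher within both numbers, PRSS8 among them. None was lower, and the shares over all genes were 26.0% higher and 24.5% lower. ST14, encoding matriptase, had 7.28 and 7.53 on the PRSS8 arrays, against 7.21 and 7.47 on the control arrays, with a mean difference of 0.07 (SE 0.49). EPCAM had 11.30 and 10.01 on the PRSS8 arrays, against 11.45 and 9.46 on the control arrays, so that the sign differed between the numbers (−0.15 within number 1 and 0.55 within number 2). EPCAM was named after its values were seen.

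In the adherens junction, the cadherin-based contact under the tight junction, 2 of 8 genes were higher and 1 lower within both numbers (median 0.01). The shares over all genes were 26.0% and 24.5%. CTNNA1, encoding the catenin that links cadherin to actin, differed by 0.21 (SE 0.69). CDH1, encoding E-cadherin, differed by 0.19 within number 1 and 0.17 within number 2 (mean 0.18, SE 0.82), and NECTIN1 by −0.09 (SE 0.16).

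**Figure D4:**
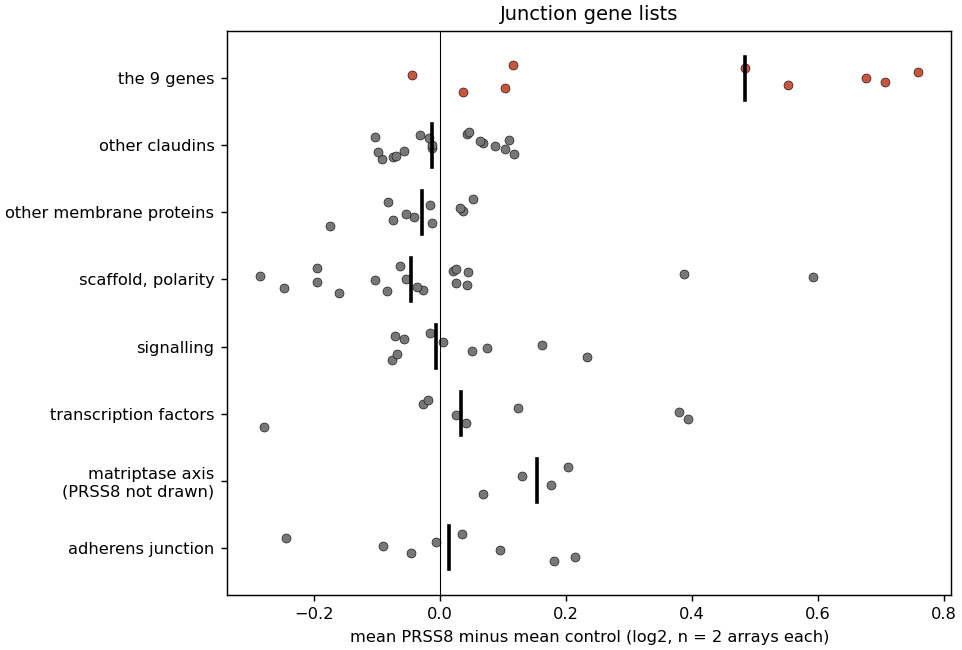
Mean PRSS8 minus mean control (log2, x axis, 2 arrays in each group) for single genes (points) of the 9 genes and of 7 further lists (rows), with bars at the median of the points drawn; PRSS8 itself, at 7.49, is not drawn. The 9 genes run from −0.05 to 0.76, and most points of the other lists lie near 0.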

How the data were processed

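Transcripts of 4 HCT116 samples were measured on Affymetrix arrays. The deposited values are log2 levels per probe set; the submitters' processing notes name RMA and Affymetrix Expression Console 1.3.1. The genome build, detection values and whether RMA ran on the 4 arrays jointly are not given in the sources used here. For number 1 the median deposited level was 3.61 on the PRSS8 array and 3.60 on the control array. For number 2 these medians were 3.86 and 3.92. The deposited values thus did not share a common distribution over the 4 arrays, and differences between numbers include that offset. Of 70523 probe sets, 67528 transcript clusters were kept, and 23781 with 1 symbol in GEO's annotation gave 22411 genes after symbols were updated through RefSeq; where a gene had several probe sets, the one with the highest mean stood for it. PRSS8 and control were compared in R 4.3.3 with limma 3.58.1 (lmFit, eBayes with an intensity trend, two-sided, Benjamini-Hochberg over all genes), with 2 residual degrees of freedom before moderation and no filter on dim probe sets. SE is the moderated standard error. The p-values measure the spread between these arrays. The number of arrays limits the precision. Listed genes with no single-symbol probe set are not analysed here.

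The 9 genes and the 7 lists were chosen with earlier results of these data known. Named from each list were up to 3 genes with the largest mean difference among those of one sign within both numbers and with a mean at or above the median of all genes. No set test was made. The code was tested on simulated data whose random noise had the same size at every level. That test checked the code and does not show what these arrays could detect. Alternatives were 3 normalizations (quantile, median centring, cyclic loess), leaving out dim genes, no intensity trend, averaging the probe sets of a gene, a block for the replicate number, and leaving out each array. Promoter windows were read from RefSeq's GRCh38.p14 sequences.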

Additional observations from a re-analysis of the deposited data

How the results depend on the processing

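In none of the 11 alternatives did any of the 9 genes pass the threshold (limma, adjusted p of 0.94 to 1). CLDN12 had a difference of 0.010 after quantile normalization; no other difference changed sign under the alternatives that kept all arrays. With an array left out, the groups also differ in replicate number, and the lone array was assumed to vary like the other group. The differences then ranged from −0.10 to 0.17 for CLDN1, −0.005 to 0.21 for CLDN2, 0.058 to 1.05 for CLDN3, 0.41 to 1.01 for CLDN4, 0.061 to 1.29 for CLDN7, −0.22 to 0.13 for CLDN12, −0.54 to 2.06 for OCLN, −0.73 to 1.70 for TJP1 and −0.46 to 0.70 for MARVELD2. Over all genes, the calls with an array left out ranged from 0 to 5 higher and from 0 to 59 lower; without control replicate 1 they were 3 higher and 59 lower, and without control replicate 2 they were 5 higher and 3 lower. The number of the 9 genes with both PRSS8 arrays above both control arrays was 4 after median centring (CLDN2, CLDN3, CLDN4 and CLDN7), 3 after cyclic loess (CLDN2, CLDN4 and CLDN7), and 1 after quantile normalization (CLDN2), where CLDN4 and CLDN7 overlapped. With an array left out, one group has a single array, so that groups without overlap are easier to reach. The number above was then 4 to 5, and the number below was 0 to 1. The number lower within both numbers was 0 after median centring and after quantile normalization. Among the 56 other junction genes, those with PRSS8 arrays above and below the control arrays numbered 5 and 1 after median centring, 4 and 4 after quantile normalization, 1 and 1 with dim genes left out, and 9 to 20 and 12 to 22 with an array left out. Causes of these changes were not tested. Shares of all genes were not counted under these alternatives, so the changed counts are not results about the listed genes.

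The replicate numbers may pair the samples, but the labels say only that each is a biological replicate. Deviations of same-numbered arrays from their group means correlated at 0.91 over genes. With the replicate number as a block, 0 genes passed (PRSS8 itself had an adjusted p of 0.076 in limma), 647 were higher and 527 lower at an unadjusted p under 0.05, and the mean differences were as before with smaller SEs: 0.21 for CLDN3, 0.28 for CLDN4, 0.38 for CLDN7, 0.25 for OCLN and 0.27 for TJP1. Unadjusted p-values under 0.05 were those of OCLN (limma, 0.027) and CLDN3 (limma, 0.043), with adjusted p of 0.94 for both.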
